A study of Medicago truncatula with 6 samples.

Results

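The nuclear genes with the most 21 to 22 nt RNA in control roots of Medicago truncatula, a model legume, numbered 130 of 52395 annotated nuclear genes, or 0.248% of them. They were chosen by their level in the 3 GUS RNAi libraries, a mean of at least 100 CPM. CPM is the counts-per-million scale, a count relative to the total of its library. The libraries came from roots labelled wild type and mock treated, 3 with RNAi against GUS, a bacterial reporter gene used as an RNAi control, and 3 with RNAi against SKI3, a subunit of the Superkiller complex. All 6 libraries therefore carry an RNAi construct, and the control differs from SKI3 RNAi in the target. The labels do not say which promoter drives the RNAi, how many plants gave a library or whether libraries came from separate plants, so p-values measure the spread between these libraries, which may be technical.

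In plants, Dicer-like enzymes cut small RNAs from double-stranded RNA. Hairpin transcripts give microRNAs, transcripts copied by an RNA-dependent RNA polymerase after cleavage give phased siRNAs, and stable structural RNAs such as rRNA and tRNA can leave fragments of similar size. MicroRNAs load into Argonaute proteins and direct the cleavage of matching transcripts, in legume roots among them transcripts that control nodule number. The Superkiller complex feeds RNA, including the fragments left by cleavage, to the cytoplasmic exosome for decay, and in Arabidopsis its loss lets some cleaved transcripts become a source of siRNAs. The study asks about the part of SKI3 in microRNA-directed cleavage, and the comparison here asks whether the genes with the most small RNA differ between SKI3 RNAi and GUS RNAi roots without a treatment.

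The feature IDs are MtrunA17 gene IDs, and the files pair none of them with a gene name, a class or a sequence. Which of the 130 genes are microRNA, phased siRNA or structural RNA loci was therefore not analysed here, and the genes are described by their ID, the chromosome that the ID contains, their counts and the features beside them in the tables. The tissue label and the knockdown of SKI3 were not checked for the same reason. The read length of 21 to 22 nt stands in a header line of SKI3 RNAi replicate 3 alone and was taken to hold for all libraries. Total counts ran from 2168297 to 3974092 per library, and a floor of 3 counts from 0.755 to 1.38 CPM. The 130 genes had between 534 and 833.5 counts in the median gene of a library, and 1 of them was at 0 in 1 library. All 130 passed the filter on low counts. Because a library is bulk root RNA, fewer cells of a type and less RNA per cell cannot be told apart in any value below.

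The 130 genes lay on all 8 chromosomes, from 11 genes on chromosome 6 to 23 on chromosome 4, and 1 gene carried an ID of a sequence named 0c03 outside the 8 chromosomes. Of the 130, 34 genes (26.2%) had no promoter feature of their own in the tables, against 1404 of all nuclear genes (2.68%), and 39 (30.0%) had an ID whose last digit was not 1, against 5.93% of all nuclear genes. The annotation of these IDs was not used here, so what sets them apart was not tested.

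A few genes had far higher levels than the rest. In GUS RNAi the mean level of the 130 genes ran from 102.2 to 35887 CPM with a median of 227 CPM, and 15 genes had at least 1000 CPM, 27 at least 500 CPM and 71 at least 200 CPM. These levels chose the genes and are a description. In SKI3 RNAi, which the choice did not use, the same genes ran from 46.8 to 24771 CPM with a median of 224 CPM. Of the 130 genes, 123 had at least 100 CPM in SKI3 RNAi too and 7 did not, and 20 further nuclear genes reached 100 CPM there. The order of the genes was close to the same in both groups, with a Spearman's rho of 0.944 across the 130 genes, which are not independent of each other and share the 6 libraries. The mean levels of both groups lay within 1.5-fold of each other in 122 genes, SKI3 RNAi was more than 1.5-fold higher in 6 and more than 1.5-fold lower in 2.

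**Figure D1:**
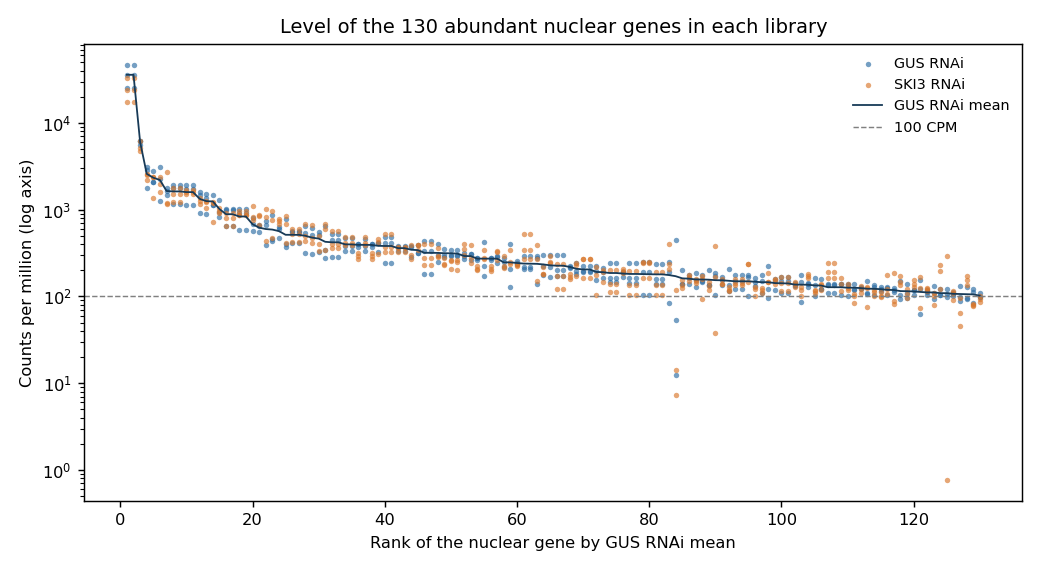
CPM on a log axis for each of the 130 genes in each library, ordered by the GUS RNAi mean (line), with GUS RNAi libraries in blue and SKI3 RNAi libraries in orange; a library at 0 counts is not drawn. The first 2 genes lie near 35887 CPM, the third near 6020 CPM, and most others within 1.5-fold between the groups.

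The top of the list was a pair of neighbouring IDs on chromosome 2, MtrunA17Chr2g0307711 and MtrunA17Chr2g0307712. The first had 35797, 25027 and 46837 CPM in GUS RNAi replicates 1, 2 and 3 and 24251, 17388 and 32674 CPM in SKI3 RNAi replicates 1, 2 and 3. SKI3 RNAi replicate 3 lay above GUS RNAi replicate 2, so the groups overlapped, and GUS RNAi replicate 3 was the highest library. The log2 fold change was -0.63 (standard error 0.337), and the adjusted p was 0.826 by edgeR's quasi-likelihood test over all 48283 tested features. The second gene differed from the first by at most 12 counts in any library, so the pair is a single measurement of what may be the same reads.

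The third gene, MtrunA17Chr0c03g0489931, had 6190, 6251 and 5618 CPM in GUS RNAi and 4692, 5156 and 6267 CPM in SKI3 RNAi. It was among the steadier of the abundant genes in the controls, with a coefficient of variation of 5.80% there and 15.1% in SKI3 RNAi. Its log2 fold change was -0.25 (standard error 0.206, adjusted p 0.855 in edgeR), and the groups overlapped.

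Below these, levels of neighbours in the order did not differ beyond their spread. MtrunA17Chr8g0384981 on chromosome 8 had 1793, 2842 and 3137 CPM in GUS RNAi and 2216, 2509 and 2595 CPM in SKI3 RNAi. MtrunA17Chr1g0173311 on chromosome 1 had 2824, 2078 and 2103 CPM in GUS RNAi and 2364, 1375 and 2354 CPM in SKI3 RNAi. MtrunA17Chr5g0426911 on chromosome 5 had 1245, 3094 and 2256 CPM in GUS RNAi and 1994, 1593 and 2368 CPM in SKI3 RNAi. The groups overlapped in all 3 genes, and only at the second did SKI3 RNAi libraries fall outside the range of the controls, with replicate 2 below it. Their log2 fold changes were -0.18, -0.29 and -0.22, with adjusted p-values of 0.882, 0.855 and 0.887 in edgeR.

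MtrunA17Chr7g1030632 on chromosome 7 had 1645, 1788.5 and 1490 CPM in GUS RNAi and 1177, 2740 and 1209 CPM in SKI3 RNAi. Its controls were close together and SKI3 RNAi replicate 2 stood above every other library. The log2 fold change was -0.05 (adjusted p 0.980 in edgeR). The remaining genes of the first 10 were the identical pair MtrunA17Chr1g0187092 and MtrunA17Chr1g0187101, with 1623 ± 398 CPM (SD, n = 3) in the controls and 1505 ± 283 CPM under SKI3 RNAi, and MtrunA17Chr8g0346192, with 1594 ± 424 and 1597 ± 94.9 CPM. The first 10 genes held 70.7% of the counts of all 130 in GUS RNAi and 63.8% in SKI3 RNAi, with each ID of a matching pair counted.

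Together the 130 genes held 12.1%, 11.2% and 15.2% of all counts in GUS RNAi replicates 1, 2 and 3 and 10.2%, 9.24% and 12.1% in SKI3 RNAi replicates 1, 2 and 3. The means were 12.8% ± 2.103 and 10.5% ± 1.45 (SD, n = 3), and the exact two-sided permutation p was 0.2, where 3 libraries against 3 cannot go below 0.1. Nearly all of this difference lay in the counts of the pair on chromosome 2. It held 7.18% ± 2.18 in GUS RNAi and 4.95% ± 1.53 in SKI3 RNAi, with an exact permutation p of 0.2. Both IDs of the pair are added here and in the totals above, so any reads they share are counted for both. The other 128 genes held 5.65% ± 0.608 and 5.57% ± 0.189, with an exact permutation p of 0.9. Without GUS RNAi replicate 3 the difference for all 130 genes shrank from -2.31 to -1.13 percentage points. The genes were chosen by their level in these same GUS RNAi libraries, which biases the difference towards lower in SKI3 RNAi. The shares and their p-values are therefore a description. Among genes chosen by the SKI3 RNAi mean, the difference was -2.19 percentage points.

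**Figure D2:**
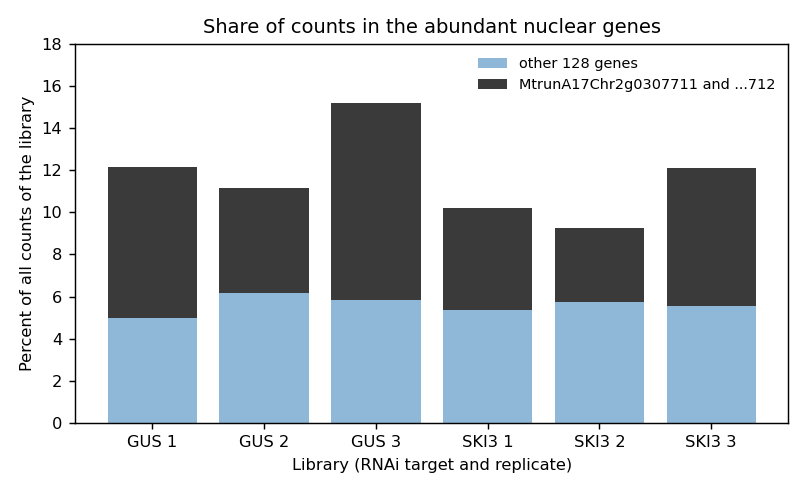
Percent of all counts of each library in the abundant nuclear genes, as stacked bars that start at 0, with the pair on chromosome 2 in dark grey and the other 128 genes in light blue. The light blue part runs from 4.98% to 6.16% over the 6 libraries, and the dark part from 3.48% to 9.37%. The dark part adds both IDs of the pair, which may hold the same reads.

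Many of the 130 genes had counts that matched those of another gene. Exactly the same 6 counts stood at 26 genes, in 13 sets, each a pair of neighbouring IDs on 1 chromosome. When genes were joined whose share of counts in each library matched within 0.01, 67 of the 130 fell into 24 groups of 2 or more, and the 130 genes made 87 groups in all. In 19 of the 24 groups the genes were on 1 chromosome, and 5 groups with 25 genes spanned more than 1 chromosome. How the authors counted reads with several alignments or in overlapping features is not given in the sources used here, so a gene below stands for its group. A match of shares can also arise between genes with like profiles and no shared reads.

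At a chromosome 8 locus the counts added up. MtrunA17Chr8g0384981 had counts of 7125, 6162 and 10938 in the controls and of 6318, 5832 and 6779 under SKI3 RNAi. These equalled the sum of its neighbours MtrunA17Chr8g0384972 and MtrunA17Chr8g0384982 in 5 of 6 libraries and missed it by 1 count in the other. The 1 kb promoter of MtrunA17Chr8g0384971 had the same 6 counts as MtrunA17Chr8g0384981, and both neighbours were among the 130 genes, so 3 of the 130 describe this locus.

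The largest group held 8 genes as 4 identical pairs of IDs on chromosomes 3, 5 and 8, led by MtrunA17Chr8g0387732. That gene had 204, 304 and 171 CPM in GUS RNAi and 122, 236 and 171 CPM in SKI3 RNAi. The other 3 pairs, led by MtrunA17Chr3g0108602, MtrunA17Chr5g0433002 and MtrunA17Chr5g0396981, followed the same profile, with totals over the 6 libraries from 2738 to 3406 counts in the group. GUS RNAi replicate 2 was the highest library and SKI3 RNAi replicate 1 the lowest in all 8 genes, which were joined by their like profiles. The GUS RNAi and SKI3 RNAi libraries overlapped. The log2 fold change of MtrunA17Chr8g0387732 was -0.45 (standard error 0.257, adjusted p 0.831 in edgeR).

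The next group held 6 genes on chromosomes 2, 3 and 7, led by MtrunA17Chr3g0130861, with 321, 534 and 644 CPM in GUS RNAi and 434, 688 and 493 CPM in SKI3 RNAi. It included the identical pairs MtrunA17Chr2g0277932 with MtrunA17Chr2g0277941 and MtrunA17Chr7g0253582 with MtrunA17Chr7g0253591. GUS RNAi replicate 1 was the lowest library and SKI3 RNAi replicate 2 the highest in all 6 genes, again joined by their like profiles. The log2 fold change of the leading gene was 0.0012 (standard error 0.268, adjusted p 1.00 in edgeR), and its sign changed with the scaling. A group of 4 genes on chromosomes 1 and 3, led by MtrunA17Chr1g0187092, also had its lowest control value in GUS RNAi replicate 1, with 1176, 1759 and 1936 CPM in GUS RNAi and 1216, 1782 and 1518 CPM in SKI3 RNAi.

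A group of 3 genes spanned chromosomes 1, 2 and 8, namely MtrunA17Chr1g0173311, MtrunA17Chr2g0306211 and MtrunA17Chr8g0359221, the last 2 chosen after their values were seen. Here the promoters carried counts as well. The 3 kb promoter of MtrunA17Chr1g0173311 held 11.7% of the gene's counts, that of MtrunA17Chr2g0306211 held 55.0% and that of MtrunA17Chr8g0359221 held 98.2%. Repeat regions among the 10 features on either side held up to 12.1%, 0% and 155% of the counts of these genes. At MtrunA17Chr8g0359221 a transposable element fragment there held 155% too. The ratio of gene to 3 kb promoter stayed between 1.81 and 1.83 in all 6 libraries at MtrunA17Chr2g0306211. At MtrunA17Chr8g0359221 the same ratio was 1.25, 0.911 and 1.341 in the controls and 0.891, 0.497 and 1.26 under SKI3 RNAi. The ratio was thus nearly constant at the chromosome 2 gene and varied between libraries at the chromosome 8 gene, where SKI3 RNAi replicate 2 had the lowest ratio.

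**Figure D3:**
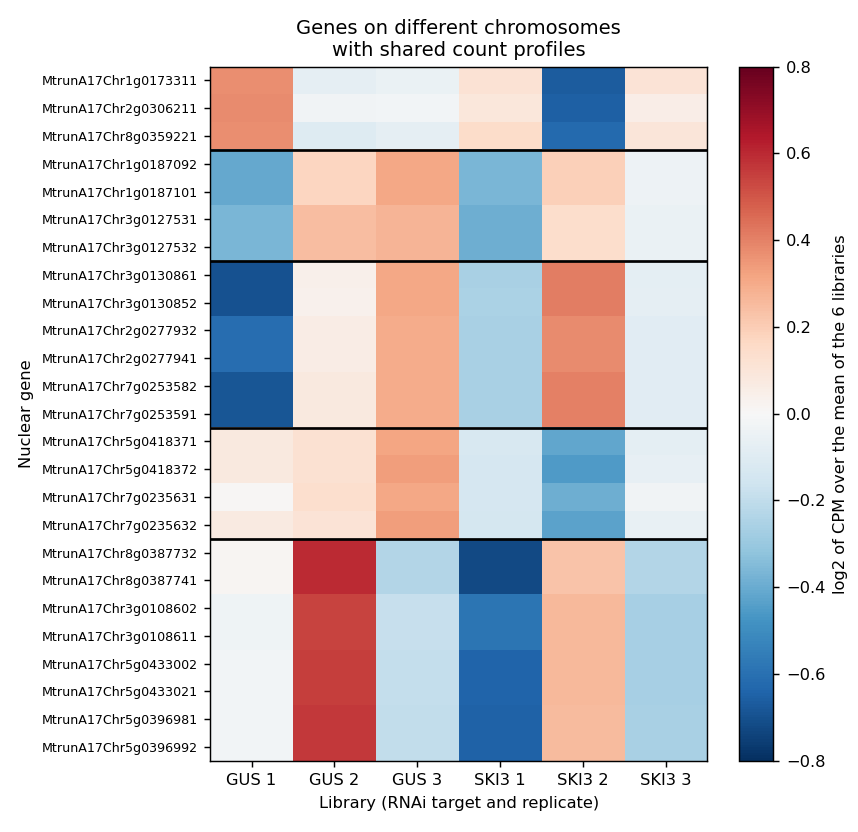
Colour shows the log2 of CPM over the gene's mean of the 6 libraries, for the 25 genes in groups of shared counts that span more than 1 chromosome, with black lines between the 5 groups. Rows between black lines have nearly the same pattern over the libraries because the genes were joined by that likeness. The 3 libraries of GUS RNAi or of SKI3 RNAi differ among themselves.

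Promoters of most of the 130 genes held few counts. Among the 96 genes with promoter features, the median 1 kb promoter held 0.207% of the gene's counts and the median 3 kb promoter 0.284%. The 1 kb promoter held more than 5% in 8 genes and the 3 kb promoter in 7. In the tables, which list features by chromosome, 62 of the 130 genes had another gene within 10 rows with at least 90% of their counts, and 40 had a promoter with as many. Transposable element fragments or repeat regions within 10 rows held at least 10% of the counts of 29 genes. For 24 genes no feature of these kinds within 10 rows reached 10%. MtrunA17Chr5g0407641 had the same 6 counts as a transposable element fragment of the terminal inverted repeat class, the only fragment with exactly the counts of any of the 130 genes.

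Single genes were then compared between SKI3 RNAi and GUS RNAi. No gene of the 130 had an adjusted p under 0.05 in edgeR, nor did any of the 48283 tested features (0%), and the smallest adjusted p among the 130 was 0.743. At an unadjusted p under 0.05, 6 genes were higher in SKI3 RNAi, or 4.62%, against 3.58% of all tested features, and 11 were lower, or 8.46%, against 2.99%. Without the filter on low counts, 3 genes of the 130 had an adjusted p under 0.05, against 0.109% of 317228 features. They were the pair on chromosome 2, a single measurement, and MtrunA17Chr3g0136661, which GUS RNAi replicate 1 alone put past 100 CPM. The DESeq2 Wald test gave 0 genes at an adjusted p under 0.05. At an unadjusted p under 0.05 it gave 6 higher genes, against 1.01% of the features it tested, and 14 lower genes, against 1.37%. GUS RNAi values chose the genes and also enter this contrast, so these counts are a description. Chosen by the mean of all 6 libraries, 13 of 140 genes (9.29%) were higher and 9 (6.43%) lower in edgeR at an unadjusted p under 0.05. Chosen by the SKI3 RNAi mean, 15 of 143 genes (10.5%) were higher and 8 (5.59%) lower. Lower genes outnumbered higher ones under the choice by GUS RNAi and not under the other choices. Under each of these choices both shares were above those of all tested features, 3.58% for higher and 2.99% for lower genes. Without SKI3 RNAi replicate 1, 4 of the 130 genes were higher, against 3.44% of all features tested then, and 2 were lower, against 3.78%. The log2 fold change was below 0 in 88 genes in that fit, and the median relative to all features tested then was -0.17.

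The median log2 fold change of the 130 genes was -0.12, against 0.02 for all tested features. The value was below 0 in 87 genes and above 0 in 43, against 48.0% and 52.0% of all tested features. Scaled by total counts alone, the medians were -0.03 for the 130 genes and 0.12 for all tested features, with 68 genes below 0 and 62 above, and 9 were higher and 11 lower at an unadjusted p under 0.05, against 5.30% and 1.74% of all tested features. Among genes chosen by the SKI3 RNAi mean, the median was -0.05. The CPM of the groups did not overlap in 8 higher and 13 lower genes, against 10.5% and 3.60% of all tested features. With TMM-scaled CPM there were 6 higher and 16 lower genes, against 7.35% and 5.60%. With 1 gene for each group of shared counts, 4 of 87 (4.60%) were higher and 6 (6.90%) lower at an unadjusted p under 0.05. The shares of all tested features were 3.58% and 2.99%.

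**Figure D4:**
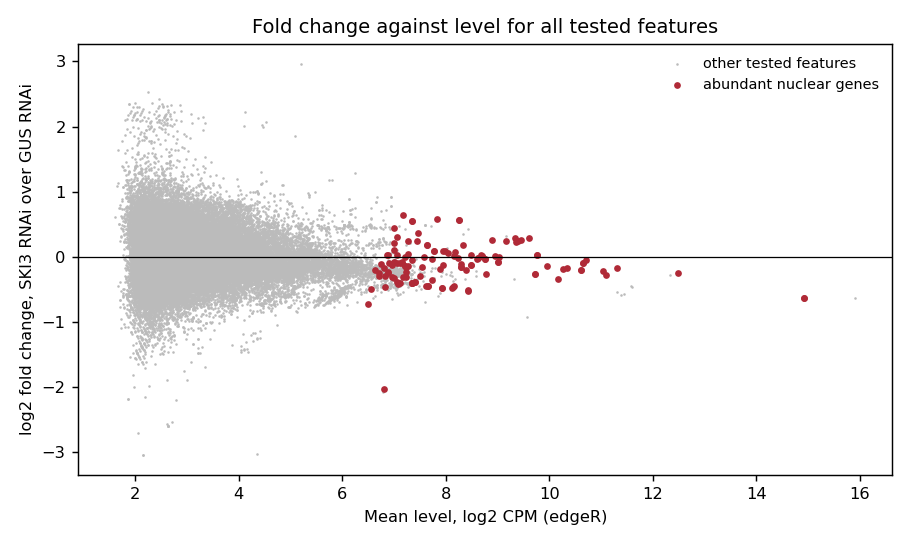
Log2 fold change of SKI3 RNAi over GUS RNAi against the mean level in log2 CPM, for all 48283 tested features in grey and the 130 abundant nuclear genes in red. The red points run from -2.03 to 0.63, with a median of -0.12, and sit at the high end of the level axis.

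The genes with the smallest p among the lower ones were neighbours on chromosome 6, MtrunA17Chr6g0483011, MtrunA17Chr6g0483012, MtrunA17Chr6g0483021 and MtrunA17Chr6g0483022, which formed 1 group of shared counts. MtrunA17Chr6g0483011 had 401, 406 and 373 CPM in GUS RNAi and 269, 317 and 294 CPM in SKI3 RNAi. MtrunA17Chr6g0483021 had 280, 278 and 261 CPM in GUS RNAi and 199, 225 and 206 CPM in SKI3 RNAi. At both, every SKI3 RNAi library lay below every GUS RNAi library, and the libraries within a group were close together. The log2 fold changes were -0.52 with a standard error of 0.162 and -0.48 with a standard error of 0.158, both with an adjusted p of 0.743 in edgeR. MtrunA17Chr6g0483012, with the smallest p of all 130, had a log2 fold change of -0.52 and an unadjusted p of 0.00832, lower in 3 of 3 libraries. Over the alternatives its log2 fold change ran from -0.60 to -0.43 and its adjusted p from 0.390 to 1.00, so the direction held in each and the difference passed the threshold in none.

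Among the other lower genes, MtrunA17Chr4g0018481 on chromosome 4, chosen after its values were seen, had 217, 214 and 224 CPM in GUS RNAi, the smallest coefficient of variation of the 130 genes in the controls at 2.40%, and 160, 167 and 182 CPM in SKI3 RNAi. MtrunA17Chr5g0441681 on chromosome 5, 1 of the 3 genes just inside the threshold, had 121, 112 and 84.6 CPM in GUS RNAi and 78.9, 82.6 and 78.1 CPM in SKI3 RNAi. The SKI3 RNAi libraries lay below all controls at both genes. Their log2 fold changes were -0.46 and -0.49, with an adjusted p of 0.743 for both in edgeR.

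Among higher genes, MtrunA17Chr7g0268431 on chromosome 7 came first by p. Its values were 122, 103 and 103 CPM in GUS RNAi and 228, 197 and 123 CPM in SKI3 RNAi, so that SKI3 RNAi replicate 3 lay only just above the highest control. The log2 fold change was 0.63 (standard error 0.220, unadjusted p 0.0158, adjusted p 0.743 in edgeR), and with TMM-scaled CPM the groups overlapped. MtrunA17Chr4g0074322 on chromosome 4 had 109, 140 and 134 CPM in GUS RNAi and 164, 243 and 192 CPM in SKI3 RNAi, higher in 3 of 3 libraries. Its log2 fold change was 0.55 (standard error 0.193, adjusted p 0.743 in edgeR). MtrunA17Chr8g0373981 on chromosome 8 had 95.9, 129 and 92.6 CPM in GUS RNAi and 153, 170 and 136 CPM in SKI3 RNAi, with no overlap. It had the same 6 counts as the 1 kb promoter of its neighbour MtrunA17Chr8g0373971.

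Neighbouring genes on chromosome 5 had fold changes of opposite sign. MtrunA17Chr5g0418371 had 294, 303 and 346 CPM in GUS RNAi and 255, 208 and 264 CPM in SKI3 RNAi. MtrunA17Chr5g0418381 had 221, 290 and 207 CPM in GUS RNAi and 342, 526 and 267 CPM in SKI3 RNAi. The first was below all controls in each SKI3 RNAi library, while the second overlapped the controls through SKI3 RNAi replicate 3. Their log2 fold changes were -0.47 and 0.56, with standard errors of 0.190 and 0.229 and an adjusted p of 0.743 for both in edgeR. The ratio of the second to the first was 0.752, 0.954 and 0.598 in the controls and 1.3398, 2.53 and 1.01 under SKI3 RNAi, with no overlap. Its exact two-sided permutation p was 0.1, the smallest possible, and 0.45 when adjusted over the 9 ratios tested, some of them of a gene to a promoter. The 9 ratios were picked from more possible pairs, and the adjustment does not cover that choice. The values of both genes and of the ratio had been seen before they were chosen. The 3 kb promoter of MtrunA17Chr5g0418381 matched the counts of MtrunA17Chr5g0418371 to within 1 count in each library, and MtrunA17Chr5g0418371 shared its profile with MtrunA17Chr7g0235631 and MtrunA17Chr7g0235632 on chromosome 7.

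A ratio on chromosome 8 also differed without overlap. MtrunA17Chr8g0352961 had 249, 401 and 304 CPM in GUS RNAi and 282, 364 and 292 CPM in SKI3 RNAi. MtrunA17Chr8g0352981 had 174, 302 and 225 CPM in GUS RNAi and 180, 216 and 184 CPM in SKI3 RNAi. Each overlapped between groups, but the ratio of the first to the second was 1.37 ± 0.0514 in the controls and 1.61 ± 0.0612 under SKI3 RNAi (SD, n = 3). The exact two-sided permutation p was 0.1, the smallest possible, and 0.45 when adjusted over the 9 ratios. This locus, too, was chosen after its values were seen. The ratio of MtrunA17Chr6g0483011 to MtrunA17Chr6g0483021 was 1.44 ± 0.0180 in the controls and 1.40 ± 0.0432 under SKI3 RNAi, with an exact permutation p of 0.3. Both genes were in the same group of shared counts, so a nearly constant ratio followed from the grouping and is no contrast to the other ratios.

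**Figure D5:**
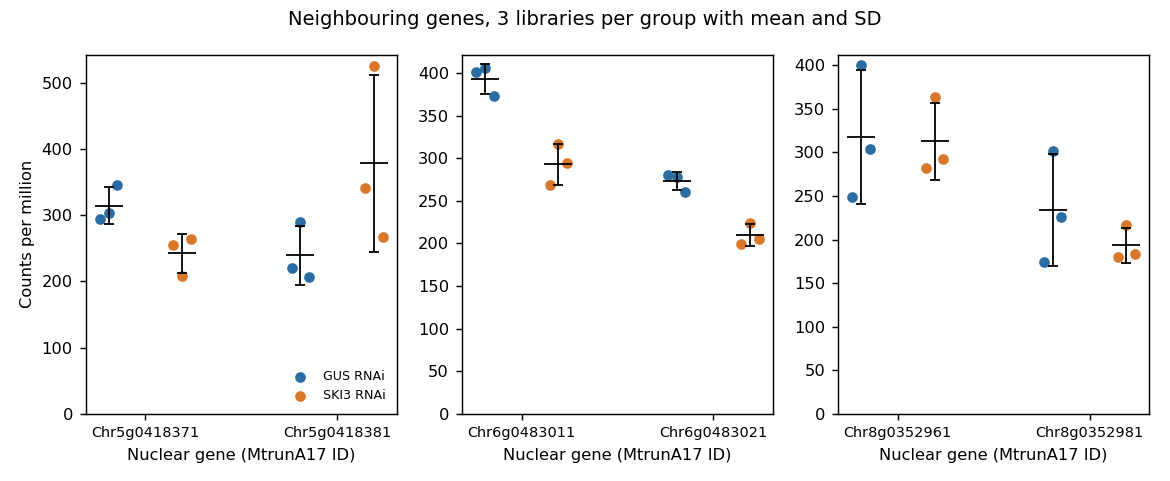
CPM in each library for neighbouring genes on chromosomes 5, 6 and 8, with GUS RNAi in blue, SKI3 RNAi in orange and the mean with SD over 3 libraries in black; axes start at 0. On chromosome 5 the mean of the first gene was 314 in GUS RNAi and 242 in SKI3 RNAi, and that of the second 239 and 378.

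In a few genes single libraries stood far from the others. MtrunA17Chr3g0136661 on chromosome 3 had counts of 1779, 116 and 43 in the controls and of 41, 276 and 19 under SKI3 RNAi. GUS RNAi replicate 1 alone put it past the threshold of 100 CPM, and its log2 fold change was -2.03 (standard error 1.15, adjusted p 0.829 in edgeR), but 0.41 without that library. MtrunA17Chr1g0196831 on chromosome 1 had counts of 422, 213 and 428 in the controls and of 841, 0 and 2 under SKI3 RNAi. Its log2 fold change was -0.26 (adjusted p 0.978 in edgeR), and without SKI3 RNAi replicate 1 it was -8.03 (adjusted p 3.15e-05 in edgeR). In that fit 492 of 50549 tested features had an adjusted p under 0.05, only 7 of them higher, and 1 of the 130 genes did. MtrunA17Chr7g0231871 on chromosome 7 had 187, 172 and 103 CPM in GUS RNAi and 385, 166 and 37.5 CPM in SKI3 RNAi, with the highest and the lowest library both in SKI3 RNAi. For all 130 genes the coefficient of variation between libraries had a median of 18.5% in GUS RNAi and 16.3% in SKI3 RNAi.

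The genes whose level over the 6 libraries was most like that of MtrunA17Chr2g0307711 were, beside its neighbour, MtrunA17Chr6g0484383, MtrunA17Chr8g0365872, MtrunA17Chr7g0235632 and MtrunA17Chr5g0418372. Their Pearson's r of log2(CPM + 1) with it was 0.954, 0.904, 0.883 and 0.870, a description over 6 libraries that share their depth with every gene. MtrunA17Chr7g0235632 and MtrunA17Chr5g0418372 belong to the same group of shared counts. Each of these genes, like MtrunA17Chr2g0307711, had a log2 fold change below 0, which their choice by likeness to it over the same libraries favours. MtrunA17Chr6g0484383 on chromosome 6 had 98.9, 89.0 and 132 CPM in GUS RNAi and 63.8, 46.0 and 95.3 CPM in SKI3 RNAi. Its log2 fold change was -0.73 (standard error 0.296, adjusted p 0.743 in edgeR), and the groups overlapped through SKI3 RNAi replicate 3.

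Around the threshold, the 3 genes just inside were MtrunA17Chr4g0062571 at 102.2 CPM, MtrunA17Chr5g0441681 at 105.6 CPM and MtrunA17Chr8g0373981 at 105.9 CPM in GUS RNAi. The 3 just outside were MtrunA17Chr3g0112511 at 99.8 CPM, MtrunA17Chr3g0100141 at 99.3 CPM and MtrunA17Chr4g0052951 at 98.9 CPM. In SKI3 RNAi the first 3 had 94.2, 79.9 and 153 CPM and the last 3 had 94.8, 76.9 and 126 CPM, so the threshold divides genes of like level.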

How the data were processed

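Small RNA of mock-treated roots was counted in 3 GUS RNAi and 3 SKI3 RNAi libraries, grouped by their titles. The deposited files hold raw counts, made by the authors for each annotated feature. Of the tools, cutadapt 2.10, Bowtie 1.3.1 and DESeq2 1.34.0 are named without a role, per the submitters' processing notes. The counter, strand and build are not given in the sources used here. A stray header line in 1 table was dropped, and 0 columns were left unmapped. Members and lists were chosen with earlier results of these data known. All 48283 features kept by filterByExpr at a minimum count of 10 were tested in edgeR 4.0.16 (R 4.3.3) with TMM factors on total counts, the quasi-likelihood test with group as the only term and Benjamini-Hochberg adjustment at 0.05; DESeq2 1.42.0 was an alternative. The standard error is the log2 fold change over the root of F. The scripts were tested on simulated data. Floors cover counting error only. Genes named were the 10 with most counts, 3 on each side of the threshold, the 2 higher and 2 lower with the smallest p, the 3 with the largest range over libraries and the leaders of the 3 largest groups of shared counts; others were named after their values had been seen, or as neighbours or group members of these. The planned annotation lists were not run, since no ID matched a name.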

Additional observations from a re-analysis of the deposited data

How the results depend on the processing

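The count of genes at an adjusted p under 0.05 was 0 under all alternatives except without a filter on low counts, where it was 3 (MtrunA17Chr2g0307711 and MtrunA17Chr2g0307712, both at 0.0216, and MtrunA17Chr3g0136661 at 3.84e-16), and with single libraries left out, where it ran from 0 to 1. Higher genes at an unadjusted p under 0.05 were 19 of 275 at 50 CPM or more (6.91%) and 2 of 71 at 200 CPM or more (2.82%). They were 13 of 140 by the mean of all 6 libraries (9.29%) and 15 of 143 by the SKI3 RNAi mean (10.5%). The share of all tested features was 3.58% for each of these choices. With single libraries left out, higher genes were 1 to 7. There was 1 without GUS RNAi replicate 1 (0.769%, against 2.99% of all features) and 1 without SKI3 RNAi replicate 2 (0.769%, against 2.94%). There were 3 without GUS RNAi replicate 2 (2.31%, against 2.49%) and 7 without SKI3 RNAi replicate 3 (5.38%, against 4.27%). Lower genes were 27 without a filter (20.8%, against 2.22% of all features) and 26 of 275 at 50 CPM or more (9.45%, against 2.99%). With 1 gene per group of shared counts, which was chosen after seeing the data, they were 6 of 87 (6.90%, against 2.99%). With single libraries left out, lower genes were 2 to 17. There were 2 without SKI3 RNAi replicate 1 (1.54%, against 3.78% of all features) and 17 without SKI3 RNAi replicate 3 (13.1%, against 4.67%). The median log2 fold change relative to all tested features was -0.14, and -0.27 without a filter, -0.069 by the SKI3 RNAi mean and -0.22 to -0.086 with single libraries left out. The difference in summed share was negative throughout, from -3.14 to -1.13 percentage points with single libraries left out, -0.373 without the 10 most counted features and -0.0852 without the pair on chromosome 2. The choice of the genes by their GUS RNAi level favours a negative value. What caused these differences was not tested. With 3 libraries a group, no exact p can go below 0.1.

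Log2 fold changes of named genes changed sign in 20 instances. MtrunA17Chr3g0130861 was at -0.017 with DESeq2 size factors and with the DESeq2 Wald test, -0.079 without a filter and -0.045 at 1 CPM in 3 libraries. With total counts alone MtrunA17Chr7g1030632 was at 0.058 and MtrunA17Chr8g0346192 at 0.0023. With single libraries left out, the values ran from -0.25 to 0.26 at MtrunA17Chr3g0130861, -0.40 to 0.013 at MtrunA17Chr8g0384981, -0.51 to 0.0028 at MtrunA17Chr5g0426911, -0.52 to 0.15 at MtrunA17Chr7g1030632, -0.30 to 0.10 at MtrunA17Chr8g0346192, -8.03 to 0.34 at MtrunA17Chr1g0196831, -4.04 to 0.41 at MtrunA17Chr3g0136661 and -0.73 to 0.71 at MtrunA17Chr7g0231871.

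The replicate numbers were not taken to pair libraries. Deviations of same-numbered libraries correlated at 0.0685, 0.179 and 0.251, and those of differently numbered libraries at -0.207 to 0.0754. Whether the numbers mark pairs was not tested. With the replicate number as a block, 0 genes had an adjusted p under 0.05, 8 (6.15%) were higher and 23 (17.7%) lower at an unadjusted p under 0.05, against 4.36% and 3.62% of all features, the paired exact p of the summed share was 0.25, and MtrunA17Chr7g0231871 changed sign, at -0.20.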
